A study of Homo sapiens with 24 samples.

Results

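The genes described here encode the digestive enzymes, membrane proteins, proton pump subunits and sorting receptors of the lysosome, together with TFEB, a transcription factor of lysosomal genes. They were listed by name and role, and the list was chosen with earlier results of these data known. Of 53 genes listed, 52 were measured among the 18417 genes tested, and AGA was not analysed here. A gene was read from the transcript cluster (a set of array probes summarized to 1 value) that carries its symbol alone. Only IDS had more than 1 such cluster, and the one with the highest mean over all arrays stood for it.

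RNA was profiled in NSCLC (non-small cell lung cancer) cell lines, all with mutant K-ras, in order to learn which genes depend on the kinase PKCδ in cells that do or do not need K-ras. H2009 and H441 are K-ras dependent, and A549 and H460 are K-ras independent. Each line stably expressed a lentiviral shRNA, either δ193, which targets the coding region of PRKCD and which the labels call knock-down, or a scrambled shRNA (δscr), and all were kept in puromycin. The 4 lines and 2 shRNAs made 8 groups of 3 biological replicates, 24 arrays in all. A single shRNA against PKCδ was used on the arrays, so effects of that sequence and of the loss of PKCδ cannot be told apart. Whether the replicates came from separate transductions is not given in the sources used here. RNA came from whole cultures, so fewer cells with a transcript and less transcript per cell cannot be told apart either.

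Lysosomes are acidic organelles in which proteins, sugars and lipids brought by endocytosis and autophagy are digested. Most of their enzymes receive a mannose 6-phosphate tag in the Golgi and are carried onward by the receptors M6PR and IGF2R, while a proton-pumping ATPase keeps the lumen acidic and membrane proteins such as LAMP1 line the boundary. TFEB and its relatives raise many of these genes together through an E-box motif in their promoters, and carcinoma cells rely on lysosomes for recycled nutrients and release some cathepsins to the outside.

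The E-box is shown first because it is the motif through which TFEB and its relatives raise many lysosomal genes. RefSeq promoters (build GRCh38.p14, 250 bases before to 50 after the transcript start) were matched for 38 of the 52 members, 9 of them with several starts. Motifs of 3 lengths were searched on either strand, each longer one containing the shorter. TCACGTG was found in 13 of the 38 members (34.2%), against 5.87% of 14239 tested genes with a promoter and 3.71% of all 35116 promoter windows of the same length. TCACGTGA, the full palindrome, was found in 8 members (21.1%), against 1.71% and 0.98%. CACGTG alone was found in 14 members (36.8%), against 10.9% and 7.26%. The stretches below hold the match with 10 bases on either side, on the strand of the gene and 5′ to 3′, and capitals mark the motif. Distances run from the first base of the match to the start, so the CLN3 match reaches across the start. LAMP1 holds 6 matches to TCACGTG and IGF2R 3, of which 1 each is shown. A match describes the letters only and does not show that a factor binds there.
ATP6V0D1 (a proton pump subunit, chr16:67481200-67481227, minus strand, 60 bases before the start): ccccttatggTCACGTGAggcgcttgcg
MCOLN1 (a calcium channel, chr19:7522572-7522599, plus strand, 42 bases before the start): ccagaggcggTCACGTGAggggctctgg
LAMP1 (a membrane glycoprotein, chr13:113297200-113297227, plus strand, 29 bases before the start): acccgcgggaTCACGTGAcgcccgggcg
IGF2R (a sorting receptor, chr6:159968997-159969024, plus strand, 75 bases before the start): aacaagggagTCACGTGAgcggggggcg
CTSD (cathepsin D, chr11:1763958-1763984, minus strand, 47 bases before the start): cggccgcgccCACGTGAccggtccggg
SUMF1 (the sulfatase activator, chr3:4467266-4467292, minus strand, 13 bases before the start): agggctcagcCACGTGAccaaccgggt
GAA (acid α-glucosidase, chr17:80101494-80101521, plus strand, 77 bases before the start): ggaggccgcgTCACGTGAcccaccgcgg
CLN3 (a membrane protein, chr16:28492059-28492086, minus strand, 2 bases before the start): gcgggtgctgTCACGTGAtccgacaaac
The first 6 belong to members that were lower with δ193 in H441, and the last pair to members that did not pass the test in any line.

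PRKCD itself was lower with δ193 throughout: its log2 change was -2.25 (H2009), -2.40 (H441), -1.26 (A549) or -2.03 (H460), and the arrays of the 2 shRNAs did not overlap. The H441 δ193 arrays stood apart: their correlations with each other over all genes were 0.9819 to 0.9901, while arrays of every other group correlated at 0.9918 or above, and PRKCD reached 5.69, 4.68 and 6.00 on them. The median SD of the members within a group was 0.166 in H441, against 0.055 to 0.099 in the other lines. KRT8 and KRT18, keratins of simple epithelia, were high in all groups (group means of at least 11.24), but EPCAM was at 11.20 in H2009 δscr and at 5.89, 4.71 and 5.45 in H441, A549 and H460, and the lung markers NKX2-1, SFTPB, SFTPC and NAPSA lay below the median of all gene means (5.79) in every group.

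In the fit to all lines together, depletion of PKCδ went with lower lysosomal transcripts in H441 and with few called members in the other lines. A member was called where the limma adjusted p was under 0.05 over all genes and the change was at least 0.32 on the log2 scale, the fold that the study's methods set. In H441, 25 of 52 members were called lower (48.1%; 7.22% of all genes were) and 2 higher (3.85%; 7.09% of all genes). In H2009, 4 were lower (7.69%; 2.25% of all genes). In A549, 3 were lower (5.77%; 2.58% of all genes) and 5 higher (9.62%; 2.05%). In H460, 5 were lower (9.62%; 3.44% of all genes) and 2 higher (3.85%; 2.01%). No member was called higher in H2009 by limma (2.66% of all genes were). At an unadjusted limma p under 0.05, 7 members were higher there, a count that was not made over all genes. The methods' t-test, which is unadjusted and has the same fold, called 1 higher there (742 of all genes). In at least 1 line, 30 members (57.7%) were called, against 22.5% of all genes.

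The shift reached beyond the called members. The median change of the members was -0.32 (log2) in H441 and -0.13 in H460, with 46 and 43 of 52 below 0, while the median of all genes was 0 and 0.01. In H2009 and A549 the median was -0.03 and -0.01, with 28 and 27 members below 0. In H460 the arrays of the 2 shRNAs were fully apart for many members, with δ193 below δscr for 29 (55.8%; 18.1% of all genes) and above for 5 (9.62%; 16.1%), although 5 were called lower. The same counts were 26 below (50%; 10.6% of all genes) and 2 above (3.85%; 10.7%) in H441, 13 below (25%; 12.1%) and 8 above (15.4%; 13.8%) in H2009, and 10 below (19.2%; 11.7%) and 12 above (23.1%; 12.4%) in A549.

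**Figure D1:**
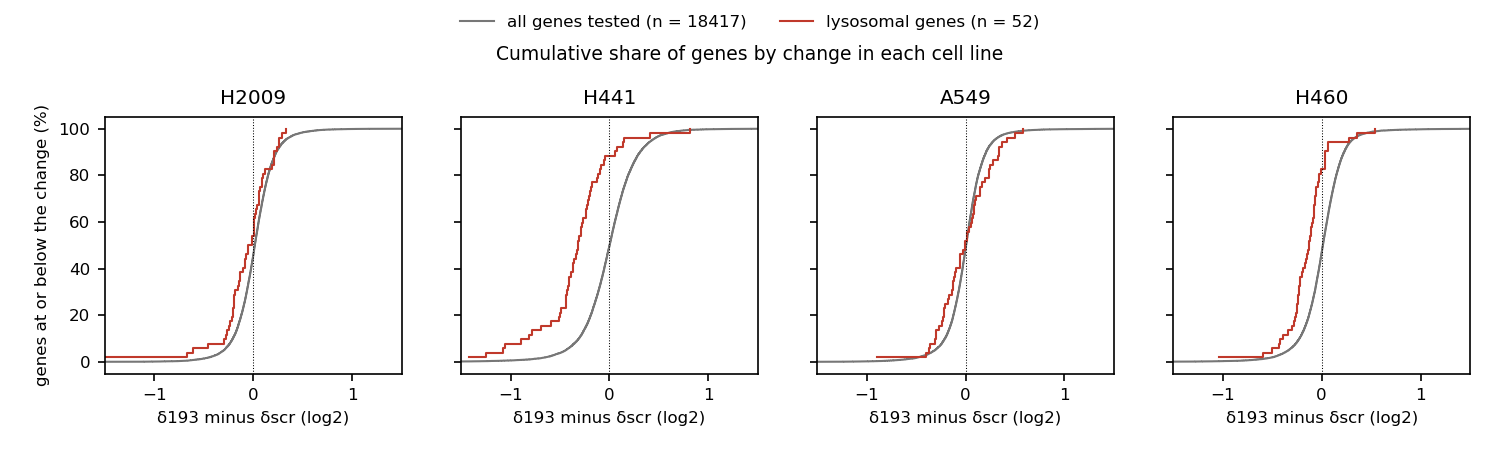
Cumulative share of genes (vertical axis, percent) at or below a given change, δ193 minus δscr on the log2 scale (horizontal axis; the few genes beyond its ends are not drawn), for the 52 lysosomal genes in red and all 18417 genes tested in grey. The red curve lies to the left of the grey one in H441 and H460, where the medians are -0.32 and -0.13, and close to it in H2009 and A549; LAPTM5 in H2009 lies beyond the left edge.

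The members lie higher on the arrays than most genes, with 42 of 52 above the median of the gene means. Among the 9208 genes above that median, 9.71% were called lower in H441, and among those 42 members 19 were (45.2%). Against the mean of the H441 δscr arrays, the members' median was -0.31, -0.32 and -0.35 on the δ193 arrays, with 43, 44 and 44 of 52 below it, so that the shift did not come from 1 of the arrays. Without δ193 replicate 1, 2 or 3 of H441, 21, 23 and 20 members were called lower there (1359, 1351 and 1665 of all genes). In the main fit all lines shared 1 estimate of spread per gene. With H441 fitted alone on its 6 arrays, 7 members were called lower (271 of all genes were lower in that fit). These were GLMP, CTSD, CTSH, CTSS, FUCA1, SUMF1 and GM2A, and every other H441 call of a member was lost in that fit. H460 fitted alone also had 7 lower (925 of all genes), against 5 in the main fit. At a fold of at least 1.5 the number in H441 was 9 (468 of all genes were lower at that fold). The methods' t-test called 19 members lower in H441 without adjustment and 0 in either direction with the Benjamini-Hochberg adjustment, which left 1 of all genes lower there. Of the epithelial markers, CDH1 (-1.20) and KRT19 (-0.55) were also called lower in H441, and the mean of the 5 epithelial markers was 8.94 to 9.13 on the δscr and 8.41 to 8.62 on the δ193 arrays. NAPSA (-0.46), 1 of 4 lung markers, and PECAM1 (-0.51), 1 of 4 fibroblast and endothelial markers, were called lower there as well, and the mean of the latter 4 was 4.15 to 4.40 on the δscr and 4.11 to 4.27 on the δ193 arrays. In H460 KRT19 was called higher (1.20), and the epithelial mean was 8.10 to 8.22 with δscr and 8.24 to 8.26 with δ193. Of 6 immune markers, CD14 was called lower in A549 (-0.75) and higher in H460 (0.57), and LYZ was called higher in A549 (1.09). The part of these markers in the lysosomal changes was not tested.

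**Figure D2:**
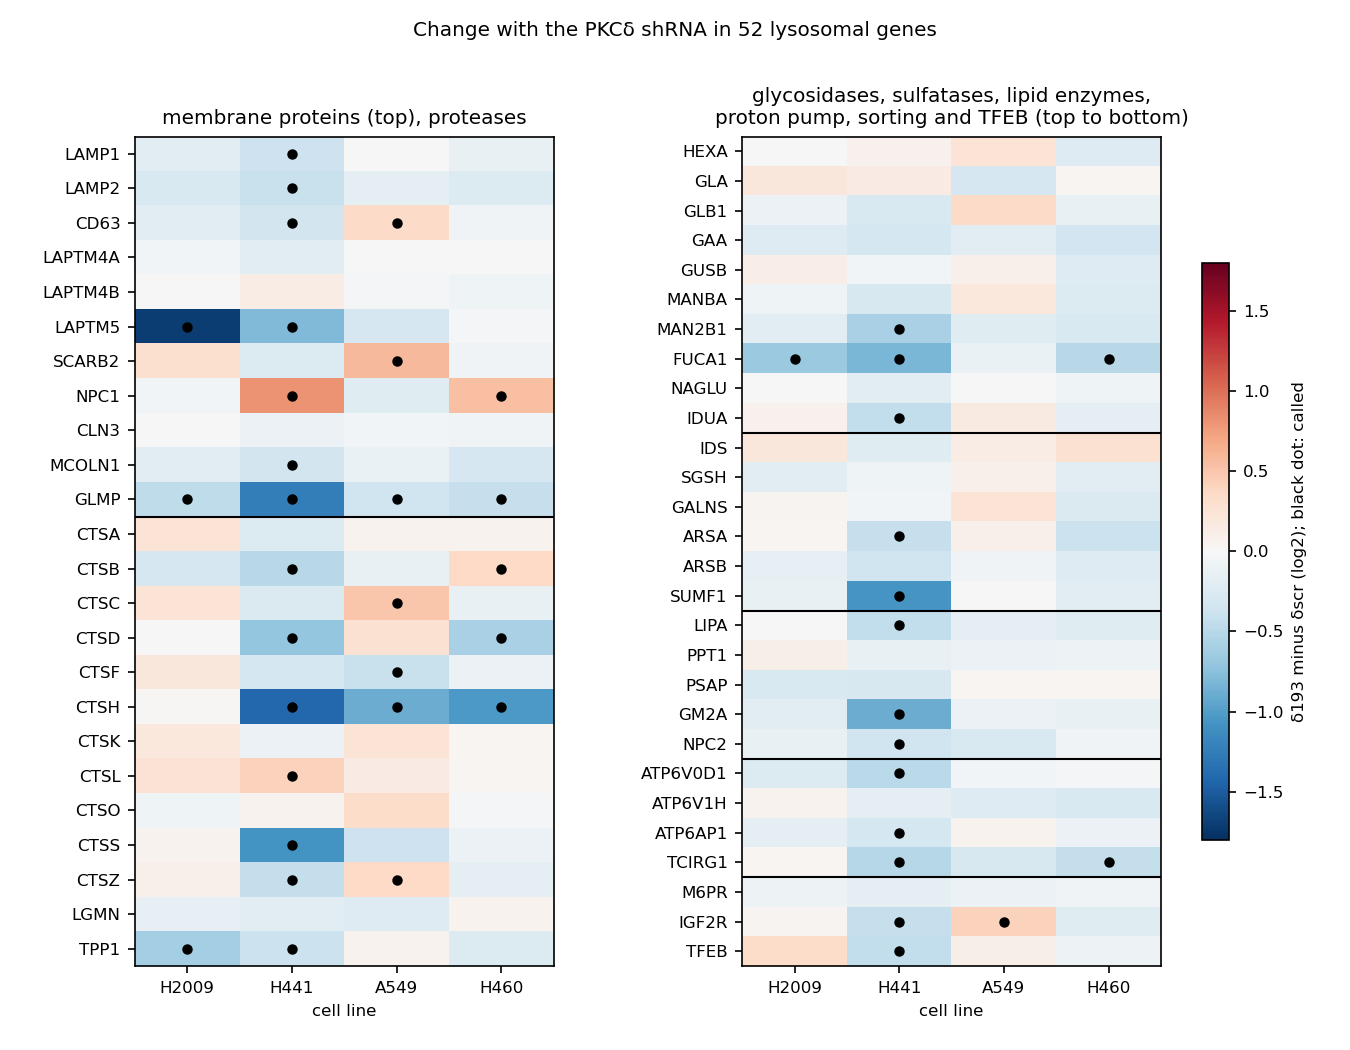
Change with δ193 (δ193 minus δscr, log2, colour scale) of each of the 52 genes in each cell line, with black dots where the change was called and lines between the role groups. Blue fills most of the H441 column, where 25 genes were called lower, and GLMP carries a dot in all 4 lines.

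Among the 11 membrane proteins, 6 were called lower and 1 higher in H441, 2 lower in H2009, 1 lower and 2 higher in A549, and 1 in each direction in H460. GLMP, a glycosylated membrane protein that protects its partner MFSD1 from digestion, was called lower in all 4 lines, the one member of which this was true. Its δscr values were 7.82, 7.82 and 7.52 in H2009 and 8.62, 8.58 and 8.43 in H441, and its δ193 values were 7.27, 7.29 and 7.21 in H2009 and 7.51, 7.14 and 7.24 in H441. In A549 it went from 8.79, 8.70 and 8.56 to 8.34, 8.29 and 8.34, and in H460 from 8.92, 8.95 and 8.92 to 8.53, 8.55 and 8.46. The groups did not overlap in any line. The decrease was 2.38 fold in H441 (SE of the log2 change 0.10; adjusted p = 6.27e-09), 1.37 fold in H2009 (0.00474), 1.33 fold in H460 (0.00916) and 1.28 fold in A549 (0.0306). The fall in H441 exceeded that in H2009 by 0.79 (adjusted p = 0.000668), in A549 by 0.89 (0.000146) and in H460 by 0.83 (0.000768). The call in A549 was lost when any of 5 of its 6 arrays was left out, and that in H460 without δ193 replicate 3.

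LAPTM5, a membrane protein best known from blood cells, had the largest change of any member in any line. In H2009 it was at 7.71, 7.65 and 7.69 with δscr and at 6.35, 5.84 and 5.72 with δ193, a decrease of 1.71 ± 0.21 (SE; adjusted p = 1.5e-05) or 3.28 fold. In H441 it was at 5.26, 5.74 and 5.11 against 4.51, 4.97 and 4.27 (-0.79 ± 0.21, adjusted p = 0.0107), a call that was lost without δscr replicate 2 or δ193 replicate 3. In A549 LAPTM5 was at 3.65, 4.44 and 4.42 against 3.58, 3.96 and 4.04, and in H460 at 4.73, 4.30 and 4.66 against 4.63, 4.58 and 4.37. The arrays overlapped in both, and the changes were -0.30 and -0.04, with 95% intervals from -0.74 to 0.13 and from -0.47 to 0.40. The general leukocyte marker PTPRC stayed between 2.66 and 2.79 in all groups, far below the median of all gene means (5.79). The mean of 6 immune markers was 3.92 to 3.93 on the H2009 δscr arrays and 3.85 to 3.92 on the δ193 arrays. Among them CSF1R was lower with δ193 in H2009 without overlap (5.23, 5.14 and 5.18 against 4.88, 4.73 and 5.08). The arrays of the other immune markers overlapped there, and none of the 6 was called in H2009.

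NPC1, which exports cholesterol from the lysosome, moved against most members. In H441 it rose from 9.30, 8.99 and 8.98 to 9.87, 10.35 and 9.49 (0.81 ± 0.14, adjusted p = 0.000339), and in H460 from 9.55, 9.46 and 9.51 to 10.08, 10.04 and 10.03 (0.54 ± 0.14, adjusted p = 0.0239). The δ193 arrays lay above the δscr arrays in both lines, while in the other two they overlapped. NPC1 was at 9.18, 9.31 and 9.21 against 9.19, 9.22 and 9.13 in H2009 (-0.05), and at 8.96, 8.55 and 8.60 against 8.47, 8.59 and 8.39 in A549 (-0.22). The H460 call was lost when any 1 of its 6 arrays was left out, and the H441 call when H441 was fitted alone. The SE of 0.14 came from the spread shared by all lines. The SD of NPC1 was 0.18 (δscr) and 0.43 (δ193) in H441, and 0.04 and 0.03 in H460. The soluble protein NPC2, which hands cholesterol to NPC1, was called lower in H441 (-0.36).

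CD63, a tetraspanin of lysosomes and exosomes, was lower in H441 and higher in A549. In H441 its values were 9.93, 9.76 and 9.82 with δscr and 9.60, 9.46 and 9.45 with δ193 (-0.33 ± 0.09, adjusted p = 0.0158), a call that was lost without δscr replicate 1 or δ193 replicate 2 or 3. In A549 they were 8.29, 8.23 and 8.49 against 8.46, 8.77 and 8.81, so that 1 δ193 array lay below the highest δscr array (0.34 ± 0.09, adjusted p = 0.0368), and the call was lost without any of 4 of its arrays. The difference between these changes was 0.67 (adjusted p = 0.00189). CD63 was not called in H2009 (8.82, 8.86 and 8.85 against 8.71, 8.65 and 8.55) or in H460 (8.41, 8.35 and 8.33 against 8.19, 8.37 and 8.33). SCARB2, the receptor that carries glucocerebrosidase, rose in A549 from 7.64, 7.06 and 7.27 to 7.79, 7.95 and 7.97 (0.58 ± 0.12, adjusted p = 0.00437). It was not called in H2009 (7.74, 7.73 and 7.66 against 8.04, 7.94 and 8.02), where the δ193 arrays were also the higher. The arrays overlapped in H441 (8.24, 7.94 and 7.84 against 7.75, 7.97 and 7.60) and H460 (7.42, 7.36 and 7.44 against 7.34, 7.41 and 7.24). LAMP1 (-0.37), LAMP2 (-0.40) and MCOLN1 (-0.33) were each called lower in H441 only, where the LAMP1 arrays overlapped and its call was lost when any of 16 of the 24 arrays was left out and when the replicate number was a block. MCOLN1 lost its call without δscr replicate 3 or δ193 replicate 1 or 2 of that line. LAPTM4A, LAPTM4B and CLN3 were not called, with changes between -0.20 and 0.14 over the 4 lines.

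Of the 13 proteases, 6 were called lower and 1 higher in H441, 1 lower in H2009, 2 in each direction in A549, and 2 lower and 1 higher in H460. CTSH, an aminopeptidase of the papain family that processes surfactant proteins in lung, fell in 3 lines. In H441 it went from 6.47, 6.37 and 6.00 to 4.96, 4.63 and 4.99 (-1.42 ± 0.15, adjusted p = 5.61e-07), the largest change of a member in that line. In A549 it went from 7.89, 7.36 and 7.71 to 6.88, 6.59 and 6.82 (-0.89 ± 0.15, adjusted p = 0.000502), and in H460 from 6.32, 6.12 and 5.97 to 5.02, 5.30 and 4.99 (-1.03 ± 0.15, adjusted p = 7.76e-05). None of these groups overlapped. In H2009 CTSH was low with either shRNA (4.73, 4.92 and 4.53 against 4.62, 4.91 and 4.71), and the change of 0.02 had a 95% interval from -0.29 to 0.33. The change in H2009 differed from that in H441 by 1.44 (adjusted p = 0.000144), in A549 by 0.91 (0.0143) and in H460 by 1.05 (0.00395). The differences among the other 3 lines did not pass the test (adjusted p = 0.135 to 0.85).

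CTSD, the main aspartic protease of the lysosome, fell in H441 from 11.59, 11.48 and 11.38 to 10.89, 10.89 and 10.60 (-0.69 ± 0.08, adjusted p = 4.89e-06). In H460 it fell from 11.80 on all 3 arrays to 11.23, 11.21 and 11.18 (-0.59 ± 0.08, adjusted p = 6.22e-05). In A549 the δ193 arrays (10.97, 10.93 and 10.99) lay above the δscr arrays (10.55, 10.79 and 10.72), but the increase of 0.28 did not pass the test (adjusted p = 0.0622). The H2009 arrays overlapped (9.51, 9.55 and 9.61 against 9.58, 9.57 and 9.50). The change in A549 differed from that in H441 by 0.97 (adjusted p = 1.37e-05) and from that in H460 by 0.87 (5.28e-05), while H441 and H460 did not differ past the threshold (0.10, adjusted p = 0.713).

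CTSB, a cysteine protease that invasive carcinomas often secrete, moved in opposite directions in a pair of lines. In H441 it fell from 9.10, 9.18 and 8.87 to 8.72, 8.60 and 8.34 (-0.50 ± 0.09, adjusted p = 0.000632), and in H460 it rose from 8.13, 8.28 and 8.29 to 8.63, 8.57 and 8.58 (0.36 ± 0.09, adjusted p = 0.0209). The difference between the 2 changes was 0.86 (adjusted p = 0.000459). In H2009 the δ193 arrays (8.90, 8.96 and 8.89) lay below the δscr arrays (9.24, 9.22 and 9.20) without passing the test (-0.30, adjusted p = 0.0649), and so did those in A549 (9.54, 9.49 and 9.60 against 9.78, 9.61 and 9.65). The call in H460 was lost without δscr replicate 1 or any of the δ193 arrays. CTSZ, an exopeptidase, fell in H441 from 9.25, 9.24 and 9.13 to 8.88, 8.75 and 8.70 (-0.43 ± 0.09, adjusted p = 0.00161). In A549 CTSZ rose from 8.99, 8.86 and 8.99 to 9.23, 9.32 and 9.38 (0.36 ± 0.09, adjusted p = 0.016), and the call was lost without δscr replicate 2 or δ193 replicate 2 or 3. CTSZ was not called in H2009, where arrays overlapped (8.22, 8.57 and 8.32 against 8.45, 8.57 and 8.36), or in H460, where the δ193 arrays were the lower (8.96, 8.83 and 8.90 against 8.66, 8.74 and 8.78).

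TPP1, a tripeptidyl peptidase, was called lower in both K-ras dependent lines. Its values were 6.87, 6.81 and 6.79 against 6.27, 6.24 and 6.14 in H2009 (-0.61 ± 0.11, adjusted p = 0.00163) and 5.45, 5.61 and 5.46 against 5.19, 4.80 and 5.37 in H441 (-0.39 ± 0.11, adjusted p = 0.0195). The H441 call was lost without δscr replicate 2 or δ193 replicate 2. TPP1 was not called in A549 (0.07), where arrays overlapped (8.41, 8.60 and 8.77 against 8.78, 8.56 and 8.66), or in H460 (-0.25), where they did not (6.79, 6.68 and 6.87 against 6.53, 6.57 and 6.50). The arrays of H2009 were tight, with no overlap, and this call held under every alternative tried.

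The other called proteases were called in 1 line each. CTSS, which trims antigens in immune cells, fell in H441 from 5.50, 5.32 and 4.93 to 4.10, 4.61 and 3.82 (-1.07 ± 0.16, adjusted p = 4.09e-05), where the 6 immune markers averaged 3.76 to 3.89 on the δ193 arrays and no less than 3.83 on the δscr arrays. CTSS was not called in H2009 (5.72, 5.70 and 5.63 against 5.85, 5.65 and 5.76), in A549 (5.41, 4.96 and 5.32 against 5.05, 4.76 and 4.78) or in H460 (3.89, 3.88 and 3.95 against 3.85, 3.81 and 3.72), with overlap in the first pair of lines and none in H460. CTSL, an endopeptidase, rose in H441 from 9.99, 10.09 and 10.07 to 10.46, 10.68 and 10.23 (0.41 ± 0.10, adjusted p = 0.00491), a call that was lost without δ193 replicate 2. CTSL was not called in H2009 (at most 9.03 with δscr against 9.33, 9.27 and 9.21), in A549 (9.49, 9.30 and 9.46 against 9.39, 9.60 and 9.71) or in H460 (10.09, 10.06 and 10.12 against 10.13, 10.15 and 10.10), and its arrays were apart in the first of these and overlapped in the others. CTSC, which activates serine proteases of granules, rose in A549 from 9.70, 9.71 and 9.89 to 10.31, 10.18 and 10.30 (0.50 ± 0.08, adjusted p = 0.000228). CTSC went the other way in H441, from 11.08, 11.14 and 10.90 to 10.74, 10.81 and 10.78 (-0.26, adjusted p = 0.0194, below the fold asked for), and the 2 changes differed by 0.76 (adjusted p = 7.15e-05). It was not called in H2009 (10.33, 10.34 and 10.34 against 10.57, 10.61 and 10.58) or H460 (11.02, 11.10 and 11.05 against 10.85, 10.95 and 10.94), where the groups were apart in opposite directions. CTSF, another cysteine protease, was lower in A549, at 6.63, 6.26 and 6.37 against 6.06, 6.11 and 5.90 (-0.40 ± 0.11, adjusted p = 0.0409), and lost its call without any of 5 of the 6 A549 arrays or any of 4 H460 arrays. CTSF was not called in H2009 (4.36, 4.54 and 4.60 against 4.63, 4.95 and 4.55), in H441 (5.78, 5.84 and 5.54 against 5.49, 5.39 and 5.34) or in H460 (5.23, 5.34 and 5.25 against 5.07, 5.19 and 5.25), and only in H441 among these were the arrays apart. CTSA, CTSK, CTSO and LGMN were not called in any line.

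**Figure D3:**
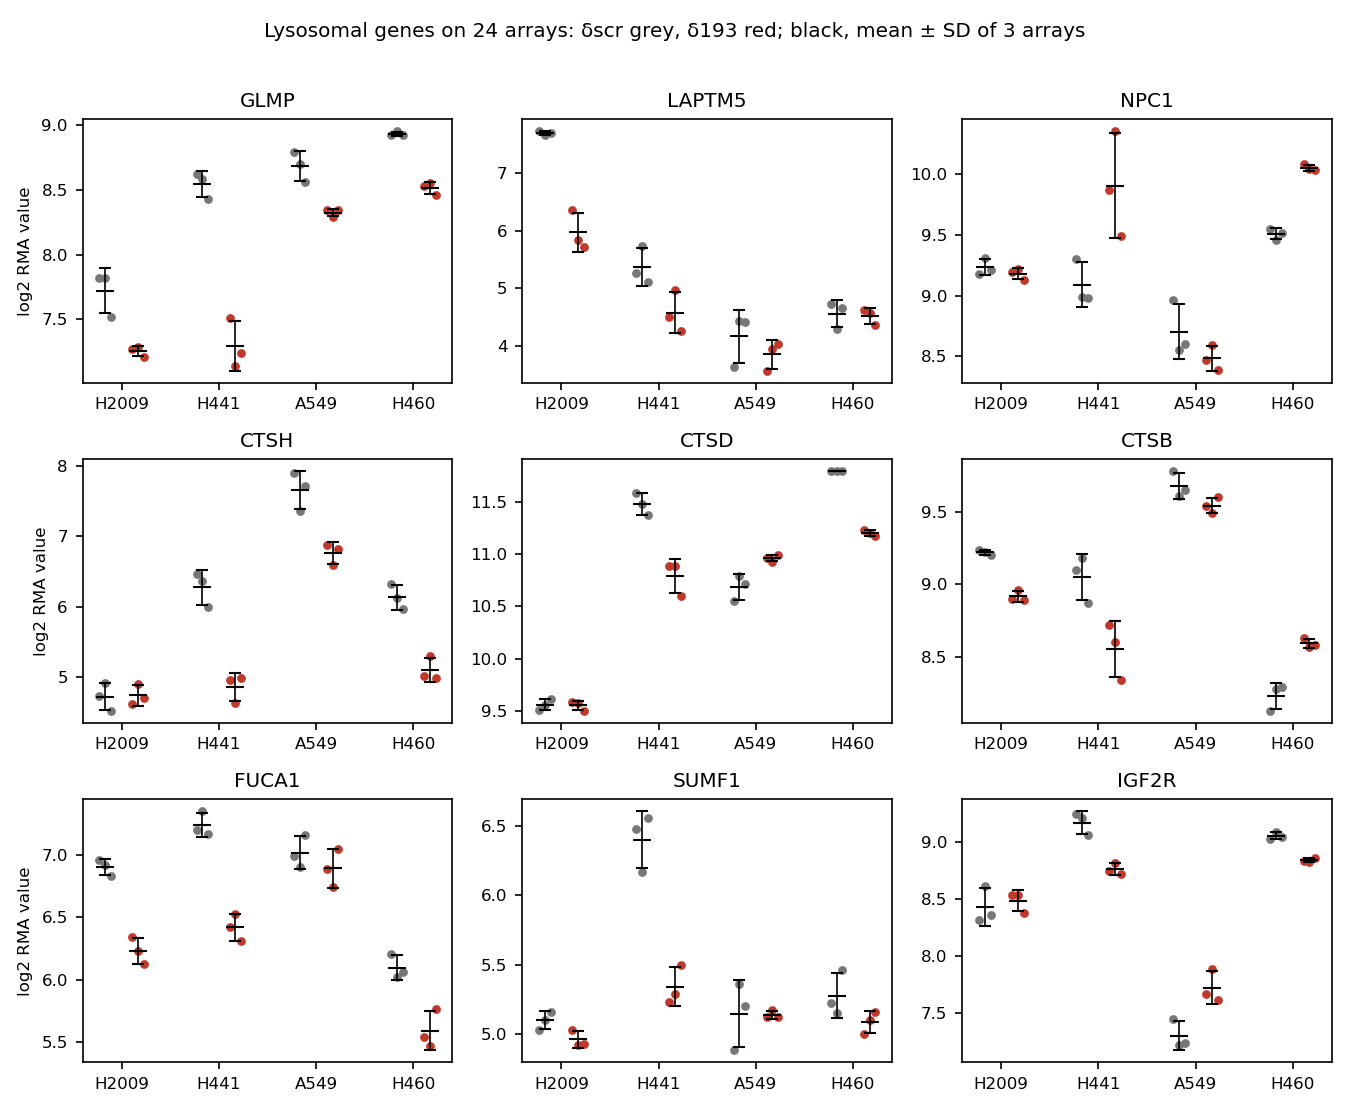
Array values (log2 RMA, vertical axes that do not start at 0) of 9 lysosomal genes by cell line, with δscr arrays in grey, δ193 arrays in red and the mean ± SD of 3 arrays in black. GLMP is lower with δ193 in all 4 lines, CTSH in all but H2009, LAPTM5 mainly in H2009, and CTSB and IGF2R move in opposite directions in different lines.

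Of the 10 glycosidases, which remove sugars from glycans and glycolipids, 3 were called lower in H441, 1 in H2009 and 1 in H460. FUCA1, the α-fucosidase, was among them in all 3 lines. It went from 6.96, 6.92 and 6.83 to 6.34, 6.23 and 6.13 in H2009 (-0.67 ± 0.10, adjusted p = 0.000186), from 7.20, 7.35 and 7.17 to 6.42, 6.53 and 6.31 in H441 (-0.82 ± 0.10, adjusted p = 5.46e-06), and from 6.21, 6.02 and 6.06 to 5.54, 5.47 and 5.77 in H460 (-0.50 ± 0.10, adjusted p = 0.0028). The groups were apart in these lines and overlapped in A549 (6.99, 6.90 and 7.16 against 6.89, 6.74 and 7.05). The change in A549 (-0.12) differed from that in H441 by 0.69 (adjusted p = 0.00276) and from that in H2009 by 0.55 (0.0326), but not past the threshold from that in H460 (0.38, adjusted p = 0.164). MAN2B1, an α-mannosidase (-0.59), and IDUA, which acts on heparan and dermatan sulfate (-0.44), were called lower in H441 alone, IDUA with overlapping arrays and a call that was lost without any of 4 of the 6 H441 arrays. HEXA, GLA, GLB1, GAA, GUSB, MANBA and NAGLU were not called, with changes from -0.34 to 0.34.

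Among the 6 genes of sulfate removal, SUMF1 and ARSA were called lower in H441. SUMF1 makes the formylglycine residue without which no sulfatase is active, and it fell from 6.40 ± 0.21 (SD, n = 3) to 5.34 ± 0.14, by 1.06 ± 0.12 (SE; adjusted p = 8.59e-07). Its H441 δscr level was the highest of the lines, by 1.12 to 1.30, and with δ193 its mean was near the 5.10 to 5.28 of the δscr arrays in the other lines. The decrease in H441 exceeded that in H2009 by 0.92 (adjusted p = 0.000886), in A549 by 1.05 (0.000176) and in H460 by 0.87 (0.00303). ARSA, which removes sulfate from sulfatide, changed by -0.42 in H441 (adjusted p = 0.0483) and lost its call when any of 21 of the 24 arrays was left out. The sulfatases IDS, SGSH, GALNS and ARSB were not called, with changes from -0.36 to 0.28.

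The 5 lipid enzymes and cofactors were below 0 in H441, 3 of them called lower. GM2A, the cofactor that lifts ganglioside GM2 to its enzyme, fell from 8.62 ± 0.06 to 7.73 ± 0.22 (SD, n = 3; -0.89 ± 0.12, adjusted p = 1.97e-05). LIPA, the acid lipase (-0.44), and NPC2 (-0.36) were the others, while PPT1 and PSAP were not called. NPC2 lost its call without δ193 replicate 3. GM2A changed by -0.21, -0.10 and -0.14 in H2009, A549 and H460, and the decrease in H441 exceeded these by 0.68 (adjusted p = 0.0163), 0.79 (0.00428) and 0.75 (0.0131).

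Of the 4 proton pump subunits, 3 were called lower in H441 and 1 in H460. TCIRG1, a membrane subunit of the pump, was called in both. It went from 8.08, 8.01 and 7.86 to 7.66, 7.49 and 7.26 in H441 (-0.51 ± 0.10, adjusted p = 0.00123) and from 8.52, 8.54 and 8.60 to 8.16, 8.06 and 8.15 in H460 (-0.43 ± 0.10, adjusted p = 0.0126). The groups did not overlap in either line, nor in A549 (8.48, 8.56 and 8.53 against 8.30, 8.21 and 8.19), where the change of -0.29 was not called. In H2009 they overlapped (7.30, 7.05 and 7.01 against 7.20, 6.95 and 7.30). The H460 call was lost without δscr replicate 3 or δ193 replicate 2. In H441 ATP6V0D1 (-0.49) and the accessory subunit ATP6AP1 (-0.32) were also lower, and ATP6V1H was not called in any line. The call of ATP6V0D1 was lost without δ193 replicate 2, and that of ATP6AP1 without δscr replicate 1 or δ193 replicate 2 or 3.

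IGF2R, the larger receptor for mannose 6-phosphate, went down in H441 from 9.25, 9.21 and 9.06 to 8.75, 8.82 and 8.72 (-0.41 ± 0.09, adjusted p = 0.00345) and up in A549 from 7.45, 7.22 and 7.24 to 7.67, 7.89 and 7.62 (0.42 ± 0.09, adjusted p = 0.00716). The difference between the changes was 0.83 (adjusted p = 0.000229), and the A549 call was lost without δ193 replicate 2. IGF2R was not called in H2009, where arrays overlapped (8.32, 8.62 and 8.36 against 8.54, 8.54 and 8.38), or in H460, where δ193 arrays were the lower (9.03, 9.09 and 9.05 against 8.84, 8.83 and 8.86). M6PR, the smaller receptor, was not called and changed by -0.06 to -0.18. TFEB was called lower in H441 (-0.44 ± 0.12, adjusted p = 0.0127), with arrays that overlapped, and lost its call without δscr replicate 1 or 2 or δ193 replicate 1. In H2009 TFEB changed by 0.33 (adjusted p = 0.127), and the changes in H2009 and H441 differed by 0.77 (adjusted p = 0.00639).

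Members called in more than 1 line were set side by side. The lines share no arrays, but each gene had 1 spread over all arrays, so the calls are not independent between lines. Of all members, 48.1% were called lower in H441, and the overlap of calls over all genes was not counted. The 4 members called lower in H2009 were LAPTM5, GLMP, TPP1 and FUCA1, and all were also among the 25 called lower in H441 (100% of the H2009 list and 16% of the H441 list). The 5 called lower in H460 were GLMP, CTSD, CTSH, FUCA1 and TCIRG1, again all among the 25 (100% and 20%). Of the 3 called lower in A549, GLMP and CTSH were among them (66.7% and 8%), but CD63, CTSZ and IGF2R were higher in A549 (60% of the A549 higher list and 12% of the 25). The 25 members called lower in H441 had a median of -0.18 in H2009, -0.10 in A549 and -0.19 in H460, where 16, 16 and 24 of them were below 0. Over the 4 lines, 18 members were called in 1 line, 9 in 2, 2 in 3 and 1 in 4, and 4 (CD63, CTSB, CTSZ and IGF2R) in both directions.

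The change itself differed among the 4 lines for 23 members (44.2%; 14.1% of all genes) by limma's F test. For 18 of the 23 the lowest change was in H441, and for 12 the highest was in A549. Between the classes, the mean change in H2009 and H441 differed from that in A549 and H460 for 8 members (15.4%; 4.99% of all genes), and was the lower in all 8. They were LAPTM5 (-1.08 ± 0.21, adjusted p = 0.00327), CTSB (-0.51 ± 0.09, 0.00193), SUMF1 (-0.50 ± 0.12, 0.012), GLMP (-0.47 ± 0.10, 0.00509), FUCA1 (-0.43 ± 0.10, 0.0135), GM2A (-0.43 ± 0.12, 0.0419), CD63 (-0.41 ± 0.09, 0.012) and TPP1 (-0.41 ± 0.11, 0.0364). For 7 of these the change was lower in each K-ras dependent line than in each independent one, and SUMF1 was the exception (-0.14 in H2009 and -0.19 in H460). The members were picked by the means of these changes, so that order follows in part from the choice. Between H460 and H2009 the change differed for LAPTM5 (1.68, adjusted p = 0.00107 by limma) and CTSB (0.66, 0.00366). It did not pass for GLMP (0.04, 0.951), GM2A (0.07, 0.935), CD63 (0.15, 0.732), FUCA1 (0.17, 0.706) or TPP1 (0.35, 0.292). Between A549 and H2009 the change differed for LAPTM5 (1.41, adjusted p = 0.00693 by limma), TPP1 (0.68, 0.0152), CD63 (0.55, 0.0194) and FUCA1 (0.55, 0.0326). For that pair of lines it did not pass for CTSB (0.17, 0.653), GLMP (0.10, 0.836) or GM2A (0.11, 0.874). LAPTM5 and TPP1 were called lower in both K-ras dependent lines and were not called in either independent line. With δscr, LAPTM5 was at only 4.17 in A549 and 4.56 in H460, below the median of all gene means (5.79). Whether such a level limited the change of LAPTM5 in those lines was not tested. With 2 lines in a class, a class and the lines in it cannot be told apart, since the arrays of a line are replicates of that line alone.

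With δscr alone, the level differed among the lines for 51 of 52 members (98.1%; 73.7% of all genes), CTSK being the exception. The median distance between the highest and the lowest line was 0.95 for the members, 0.63 for all genes and 0.91 for the genes above the median of the gene means. H441 was the highest line for 20 members and H460 for 16, while H2009 was the lowest for 25. These lines differ in origin and genotype as well as in class, so the levels describe each line.

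LAPTM5 ranged most, from 7.68 in H2009 through 5.37 in H441 and 4.56 in H460 to 4.17 in A549, and A549 and H460 did not differ past the threshold (adjusted p = 0.131). TPP1 was highest in A549 (8.59) and lowest in H441 (5.51), with H2009 (6.82) and H460 (6.78) between them and not different (adjusted p = 0.841). CTSH ran from 7.66 in A549 through 6.28 in H441 and 6.14 in H460, which did not differ (adjusted p = 0.443), to 4.73 in H2009. CTSD was highest in H460 (11.80), then H441 (11.48), A549 (10.68) and H2009 (9.56), and every pair differed (the closest by 0.31, adjusted p = 0.00347). IGF2R was lowest in A549 (7.30) and reached 9.17 and 9.06 in H441 and H460, which did not differ past the threshold (adjusted p = 0.306). CTSF ran from 6.42 in A549 to 4.50 in H2009, CTSS from 5.68 in H2009 to 3.91 in H460, and GAA, the enzyme of lysosomal glycogen, from 7.95 in H441 to 6.18 in H2009. TFEB was highest in H441 (5.86) and lowest in H2009 (5.05).

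**Figure D4:**
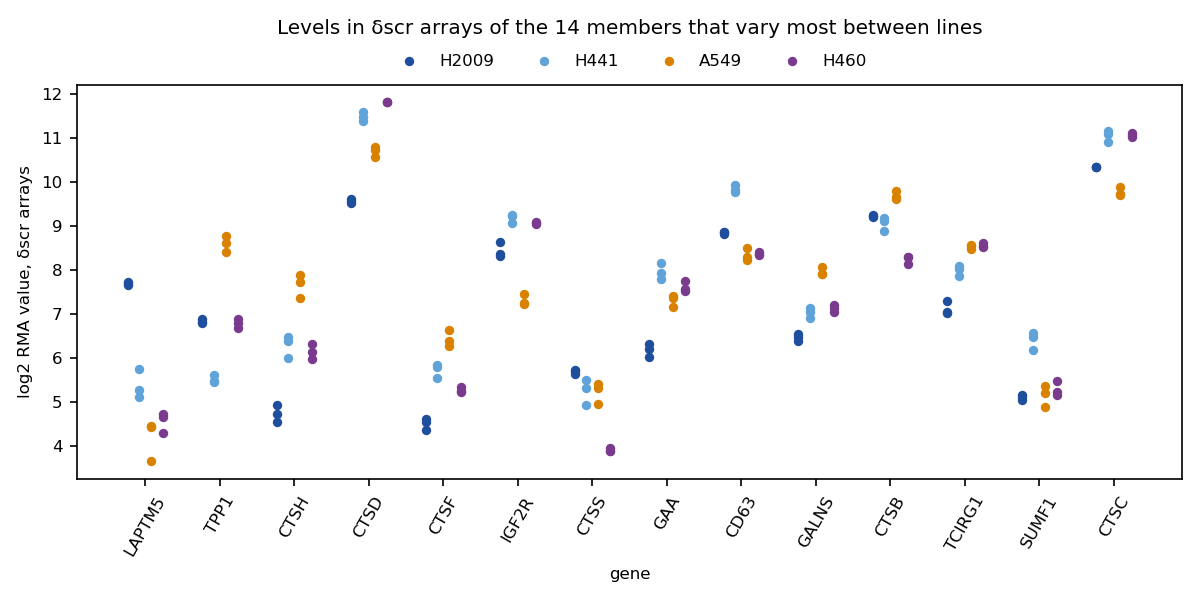
Levels (log2 RMA, vertical axis that does not start at 0) of the 14 members with the widest range between lines on the 12 δscr arrays, each point 1 array and each colour a cell line. Points should be compared within a gene only, since probes differ between genes; LAPTM5 is highest in H2009 and TPP1 and CTSH in A549.

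A further 132 lysosomal genes, grouped by role in lists written from memory, were read for context. Of these, 25 were called lower in H441 (18.9%, against 7.22% of all genes) and 5 higher (3.79%, against 7.09%). In H2009, 8 were lower (6.06%, against 2.25%) and 3 higher (2.27%, against 2.66%). In A549, 7 were lower (5.3%, against 2.58%) and 3 higher (2.27%, against 2.05%). In H460, 10 were lower (7.58%, against 3.44%) and 1 higher (0.758%, against 2.01%). The median of the 132 in H441 was -0.10. The 26 other hydrolases had 12 called lower in H441 (46.2%), 5 in H2009, 3 in A549 and 6 in H460, and a median of -0.32 in H441. GALC, which digests galactosylceramide, passed in all 4 lines, with changes of -1.58 in H441, -1.08 in H2009 and -0.56 in both A549 and H460. ASAH1, the acid ceramidase, was called lower in H2009 (-0.63), H441 (-0.92) and H460 (-0.47). CTSV, a cathepsin close to CTSL, was called lower in H2009 (-0.61), A549 (-0.68) and H460 (-0.47), and PLBD1, named for a phospholipase domain, in H2009 (-0.63).

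The remaining groups held fewer calls. Of 25 other membrane proteins, 5 were lower in H441, with MFSD1, the partner of GLMP, falling most (-0.69, adjusted p = 2.52e-05). Of 17 other pump subunits, 2 were lower and 2 higher in H441, the latter led by ATP6V0A1 (0.53) (the enzyme's largest membrane subunit), and the median was 0.02 there. Of 30 genes for sorting, 3 were lower in H441, among them GNPTG (-0.77) and GNPTAB (-0.53), which make the enzyme that adds the mannose 6-phosphate tag, and 1 was higher, the adaptor subunit AP3M2 (0.63, adjusted p = 0.000348), which was called lower in A549 (-0.48) and H460 (-0.39). Of 34 genes for TFE factors, nutrient sensing and autophagy, 3 were lower and 2 higher in H441. PPARGC1A, a coactivator that TFEB can induce, fell by 1.72 in H460 (adjusted p = 1.69e-07), the largest change of the group. GABARAPL1, an ATG8 family protein of autophagosomes, was lower in A549 (-0.83, adjusted p = 0.00114), LAMTOR3, of the Ragulator complex, higher there (0.67, adjusted p = 0.000337), and VPS18, of the HOPS tethering complex, lower in H441 (-0.64, adjusted p = 0.00537). The TFEB relatives TFE3 (0.33 in H441, adjusted p = 0.0223) and MITF (-0.57 in A549, adjusted p = 0.0164) were called too, and are named here after their values were seen.

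The E-box was counted again by the call in H441. TCACGTG was found in 6 of the 21 members called lower there that have a promoter (28.6%), the 6 printed, and in 7 of the 17 others (41.2%). It was found in 23 of 108 other lysosomal genes (21.3%). These counts describe the windows read and were not tested.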

How the data were processed

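Expression was measured on Affymetrix Human Gene 1.0 ST arrays, and the authors deposited log2 values. Per the labels and the methods, they were made by Robust Multiarray Average (RMA) in Affymetrix Power Tools (versions not given in the sources used here): background is corrected, arrays are quantile normalized, and probes are summarized to transcript clusters. RMA compresses changes of dim genes, and the number of arrays limits the precision. The array medians were 4.78 to 4.91.

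Symbols came from GEO's annotation of the array, updated through the Entrez ID for 19429 of 19460 clusters with 1 symbol; the 1754 that list several symbols and the 12038 that list no symbol were left out. For 769 genes with several clusters, the one with the highest mean stood for the gene. Groups came from the sample titles.

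limma 3.58.1 (R 4.3.3) was fitted to all 24 arrays with 1 coefficient per group, with the Benjamini-Hochberg adjustment across the 18417 genes. Calls needed an adjusted p under 0.05 and, for a change, 0.32 on the log2 scale or more; a difference between lines or classes needed the adjusted p only. Errors of changes are limma's SE, and intervals cover 95%. The script was tested on simulated data. Alternatives were the methods' t-test (per line, same fold, with and without adjustment), a stricter fold, each line alone, array weights, equal array medians, a trended and robust spread, genes above the median, the mean over clusters, a replicate block and each array left out.

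The members, the further gene lists, the markers and the tests were chosen with earlier results of these data known, and the lists were written from memory. Values of every array are given for members called in at least 2 lines and for the 3 with the largest called change per line and direction (CTSL with δscr in H2009 by its highest array), other members by range or mean, and at most the 4 largest called changes in each further group. 1 marker is not reported here. Promoters were read from RefSeq (GRCh38.p14) in Python 3.11.15; 14 members had no entry. Same-numbered replicates of δscr and δ193 did not deviate together throughout (correlations from -0.09 to 0.28), so the numbers were not taken as pairs.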

Additional observations from a re-analysis of the deposited data

Results flagged for a closer look

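The change with δ193 differed among the 4 lines for 23 members by limma's F test, and each is given here by the distance (log2) between the lines with the lowest and the highest change. From a lowest change in H441 to a highest in A549 the distance was 1.05 for SUMF1 (adjusted p = 0.000252), 0.97 for CTSD (adjusted p = 7.96e-06), 0.89 for GLMP (adjusted p = 0.000137), 0.83 for IGF2R (adjusted p = 0.000592), 0.82 for SCARB2 (adjusted p = 0.00669), 0.79 for CTSZ (adjusted p = 0.000705), 0.79 for GM2A (adjusted p = 0.00564), 0.76 for CTSC (adjusted p = 7.94e-05), 0.70 for FUCA1 (adjusted p = 0.00798), 0.67 for CD63 (adjusted p = 0.00509) and 0.62 for GLB1 (adjusted p = 0.0304). From a lowest change in H441 to a highest in H2009 the distance was 1.44 for CTSH (adjusted p = 0.000327), 1.14 for CTSS (adjusted p = 0.00373), 0.77 for TFEB (adjusted p = 0.0152), 0.54 for TCIRG1 (adjusted p = 0.0476) and 0.48 for CTSA (adjusted p = 0.0101). From a lowest change in H441 to a highest in H460 the distance was 0.86 for CTSB (adjusted p = 0.000497) and 0.50 for IDS (adjusted p = 0.0333). With A549 lowest and H2009 highest it was 0.61 for CTSF (adjusted p = 0.0343) and 0.51 for GLA (adjusted p = 0.0487). With H2009 lowest and H460 highest it was 1.67 for LAPTM5 (adjusted p = 0.00157). It was 1.03 for NPC1 from A549 to H441 (adjusted p = 0.00233). TPP1 ran from H2009 to A549, by 0.68 (adjusted p = 0.0255).

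The change also differed between the K-ras dependent and independent lines for 8 members, with the mean change in the dependent lines minus that in the independent lines at -1.08 for LAPTM5, -0.51 for CTSB, -0.50 for SUMF1, -0.47 for GLMP, -0.43 for GM2A, -0.43 for FUCA1, -0.41 for CD63 and -0.41 for TPP1. No group had more than 3 arrays, so single arrays far from their group were not sought.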

How the results depend on the processing

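Direction was kept by every one of the 46 calls of a member in a line under all alternatives, and 203 of their recomputed values lost the call while 1351 kept it. In many alternatives the direction could not change, because the difference of means stays the same. These are the t-tests, the stricter fold, lines fitted alone, the trended spread, genes above the median and the replicate block. Leaving out an array of another line also keeps that difference. At a fold of at least 1.5, H441 had 9 lower calls and 1 higher (468 and 346 of all genes). A549 had 1 and 0 (208 and 146), and H460 had 2 and 0 (227 and 161). With each line fitted alone, H441 had 7 and 0 (271 and 130 of all genes) and H460 had 7 and 2 (925 and 658). H2009 had 4 and 0 (402 and 494), and A549 had 1 and 3 (415 and 346). Adjusted by Benjamini-Hochberg, the methods' t-test called 2 lower in H2009 (85 of all genes), and 5 lower and 2 higher in H460 (566 and 341). In H441 (1 of all genes was lower there) and in A549 (27 lower and 11 higher) it called 0 in either direction. Without adjustment it called 19 lower in H441 (966 of all genes) and 1 higher in H2009 (742 of all genes). Among genes above the median 1 was lower in A549 (389 of 9208 genes). With array weights, where H441 δ193 replicates had weights of 2.28, 0.23 and 0.16, the change differed between the classes for 13 members and among the lines for 31. These differences were not counted over all genes in that fit. Calls over all genes rose with the weights in every line, in H460 from 633 to 990 lower and from 370 to 797 higher. A stricter fold admits fewer calls by construction, and otherwise the cause was not tested.

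With single arrays left out, lower calls ranged from 4 to 4 in H2009, 19 to 26 in H441, 1 to 3 in A549 and 4 to 6 in H460, and higher calls from 0 to 1, 1 to 2, 2 to 7 and 0 to 2. The class difference held for 6 to 11 members, the difference among lines for 18 to 29 and the δscr level for 50 to 51. In A549 lower calls fell to 1 without δscr replicate 1 or any δ193 array, and higher calls to 3 without δscr replicate 2 or δ193 replicate 3 and to 2 without δ193 replicate 2. In H460 higher calls fell to 0 without δscr replicate 1 or any δ193 array and to 1 without δscr replicate 2 or 3. In H441 higher calls fell to 1 without δ193 replicate 2, and H2009 had 1 higher without H441 δscr replicate 3. A replicate block (the replicate number within each line, which these data do not show to be a pairing) gave lower calls of 4, 25, 3 and 5 in H2009, H441, A549 and H460, higher calls of 0, 2, 5 and 2, and differences for 7 members between classes, 21 among lines and 51 in the δscr level. The counts of lower calls in H441 hide an exchange there: LAMP1 lost its call under the block and ARSB gained one, while no other call of a member changed in any line. Setting the array medians equal moved the median change of all genes by at most 0.038. It gave 5 lower calls in H2009 and 21 in H441 (526 and 1267 of all genes), against 4 and 25 in the main fit. The change then differed between the classes for 7 members and among the lines for 19, against 8 and 23 in the main fit.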
